A study of Homo sapiens with 22 samples.

Results

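Chromatin remodelling and histone modifier genes were taken as 47 named genes of the 20033 protein-coding genes on chromosomes 1 to 22, X and Y. They comprise 6 Polycomb genes, 11 histone demethylases, 7 histone acetyltransferases, 3 bromodomain genes, 6 SWI/SNF genes, 6 chromodomain helicases, 5 deacetylase and corepressor genes and a group of 3 with the methyltransferase DOT1L, menin (MEN1) and the deubiquitinase BAP1. Members were found by gene symbol, with no measured value in the choice. For each gene the widest peak within 1 kb of either end of its RefSeq span was read from each chromatin list, and its RNA contacts were read by the gene symbol beside each peak. Nearly all of these genes carried the promoter mark H3K4me3 and RNA polymerase II (Pol II) in QKI5 knockdown and in control cells. Their H3K4me3 widths were nearly alike in both. In control RNA 19 of them (40.4%) had a QKI5 contact, beside 13.9% of all genes and 21.6% of genes of like length. Among genes with both chromatin marks in control, the shares were 42.2% for members and 28.3% for genes of like length.

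The cells were THP-1, a human monocytic leukaemia line. Knockdown cells carried a lentivirus with a short hairpin against QKI5 (sh-QKI5), and control cells carried a lentivirus with sh-control. Control cells are described as untreated in the series text, whereas the sample labels give them a control hairpin, which is the reading used here. QKI5 is the nuclear isoform of quaking, a protein that binds RNA and acts in splicing. Each condition had 2 replicates of H3K4me3 ChIP, Pol II ChIP and QKI5 CLIP, and the deposited data hold 1 peak list per assay and condition, made from both replicates, so the spread between replicates and the depth of each sample are unknown and differences between conditions carry no p-value. ChIP maps the DNA that carries a mark or a protein, and CLIP maps RNA crosslinked to a protein.

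Chromatin modifiers set how readable a stretch of DNA is. Polycomb complexes, deacetylases and corepressors are mostly known for silencing, acetyltransferases and the bromodomain proteins that read acetyl groups for activation, demethylases for removing methyl groups from histones, and SWI/SNF and chromodomain helicases for moving nucleosomes with energy from ATP. H3K4me3 marks the starts of active genes, and in blood cells many of these regulators are recurrent targets of mutation in leukaemia.

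The H3K4me3 lists held 21358 peaks in knockdown and 21953 in control, and the Pol II lists held 35094 in knockdown and 33370 in control. The narrowest peaks were 0.501 kb wide, and every peak carries the same score, so width was the only size a peak has here. The CLIP lists held 649 peaks in knockdown and 7300 in control. QKI itself had gene-end H3K4me3 peaks of 8109 bp in knockdown and 10245 bp in control and Pol II peaks of 6954 bp in knockdown and 6642 bp in control, which do not check a knockdown that acts on RNA. In control, 7 of 8 monocytic marker genes (SPI1, CD33, LYZ, CEBPA, CSF3R, ITGAM and CD14, but not MPO) had both chromatin marks, against 0 of 7 genes of other cell types, of which COL1A1 had H3K4me3 alone. In knockdown, 6 of the 8 had both, as ITGAM had no Pol II peak.

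Promoter sequences of 5 members are shown because later results turn on them. KDM2B, BRD3, BRD9 and ANKRD11 are among the members whose Pol II peaks differed by at least 1.5-fold, and JARID2 had the QKI5 contact seen in both conditions. They run from 250 bases before to 50 after the transcript start, 5′ to 3′ on the gene's strand, from RefSeq on GRCh38.p14. That start lies 251 bp inside the 5′ end of the RefSeq span for BRD9, 522 bp for BRD3 and 1256 bp for KDM2B. The sequences of these genes therefore lie inside the gene span and not upstream of it. The windows lie at chr12:121580974-121581273 for KDM2B, chr9:134067977-134068276 for BRD3, chr5:892501-892800 for BRD9 and chr16:89490512-89490811 for ANKRD11, all on the minus strand, and at chr6:15245819-15246118 on the plus strand for JARID2. Capitals mark GGGCGG (a GC box) or CCAAT, read on both strands.
KDM2B: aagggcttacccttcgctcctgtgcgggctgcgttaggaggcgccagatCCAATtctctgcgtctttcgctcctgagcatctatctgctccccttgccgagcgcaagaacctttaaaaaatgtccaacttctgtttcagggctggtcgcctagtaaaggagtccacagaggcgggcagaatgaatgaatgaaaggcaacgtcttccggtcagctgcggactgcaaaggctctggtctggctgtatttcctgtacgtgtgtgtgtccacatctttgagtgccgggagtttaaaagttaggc
BRD3: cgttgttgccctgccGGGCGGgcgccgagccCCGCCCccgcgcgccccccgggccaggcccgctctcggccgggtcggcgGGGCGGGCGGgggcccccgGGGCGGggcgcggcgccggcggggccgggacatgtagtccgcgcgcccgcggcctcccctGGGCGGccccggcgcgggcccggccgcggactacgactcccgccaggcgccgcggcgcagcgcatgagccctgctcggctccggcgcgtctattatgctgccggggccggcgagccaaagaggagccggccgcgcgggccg
BRD9: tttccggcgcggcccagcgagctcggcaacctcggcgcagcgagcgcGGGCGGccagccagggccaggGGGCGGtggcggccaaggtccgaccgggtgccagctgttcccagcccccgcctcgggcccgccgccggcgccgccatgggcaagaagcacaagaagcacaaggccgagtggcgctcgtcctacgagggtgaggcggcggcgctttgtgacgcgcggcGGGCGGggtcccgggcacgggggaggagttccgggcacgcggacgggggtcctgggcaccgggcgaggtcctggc
ANKRD11: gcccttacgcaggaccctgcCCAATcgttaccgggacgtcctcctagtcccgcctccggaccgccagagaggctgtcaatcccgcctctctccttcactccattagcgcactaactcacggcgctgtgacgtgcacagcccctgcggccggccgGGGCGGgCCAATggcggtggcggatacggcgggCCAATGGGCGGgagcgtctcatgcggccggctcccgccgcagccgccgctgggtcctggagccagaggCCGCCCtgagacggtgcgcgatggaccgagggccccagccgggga
JARID2: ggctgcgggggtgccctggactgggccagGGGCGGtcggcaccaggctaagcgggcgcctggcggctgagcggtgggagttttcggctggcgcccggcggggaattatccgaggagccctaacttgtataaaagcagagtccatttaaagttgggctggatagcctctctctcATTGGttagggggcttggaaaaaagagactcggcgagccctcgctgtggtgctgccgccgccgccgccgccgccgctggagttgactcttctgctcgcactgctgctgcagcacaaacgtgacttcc

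RefSeq held promoters for 42 of the 47 members, all but ARID2, BAP1, CHD7, DOT1L and KAT6A. GGGCGG on either strand was in 28 of the 42, or 66.7%, against 58.5% of all 15842 promoters in the table. CCAAT was in 35.7% of members against 36.4%, and CCGGAAG, an ETS-type motif, in 16.7% against 14.2%. TATAAA was found in 1 member, JARID2, or 2.38% against 9.63% of all. The motifs were searched on both strands, and at ANKRD11 a CCAAT adjoins a GGGCGG without sharing a base. The member promoters held a median of 29.5 CG dinucleotides, from 3 to 56, against 22 over all promoters. BRD3 held the 56 and had 6 GC boxes, whereas KDM2B had 15 CG dinucleotides and no GC box. A match of letters is a description of the sequence and not a bound site.

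H3K4me3 lay over these starts in both conditions. It covered the whole promoter window of 41 of 42 members in knockdown and 40 in control, against 64.8% of all promoters in knockdown and 64.9% in control. KDM6A was uncovered in both lists, and KDM2A was covered in part in control. Pol II covered the whole window of 38 members in each condition, or 90.5%, against 56.1% of all promoters in knockdown and 53.5% in control. The windows covered in part were those of KDM2B, CHD3 and ARID1B in knockdown and of KAT6B, MEN1 and ARID1B in control.

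H3K4me3 at the gene ends differed little between conditions. Of the 47 members, 45 had a gene-end H3K4me3 peak in both lists, 0 had one in knockdown alone (beside 1.15% of all genes with a peak) or in control alone (beside 0.815%), and KDM4C and KDM6A had none in either. Over all protein-coding genes 66.6% had a peak in both lists. The members' median width was 5239 bp in knockdown and 5235 bp in control, against 3731 bp in knockdown and 3871 bp in control over all genes with a peak in that list. In knockdown 42 and in control 40 of the 45 members were wider than the median of genes in their own length decile, one of 10 classes of gene length. A change was called where the widths differed by at least 1.5-fold, and 0 of 45 members passed, beside 4.18% of all genes (1.96% wider and 2.22% narrower in knockdown, and 6.06% when peaks in 1 list alone are added). The median log2 width ratio, knockdown over control, was -0.06 for members and -0.04 for all genes, with 17 members wider and 28 narrower in knockdown by any amount. Of the 13348 genes with a peak in both lists, 5592 were wider and 7717 narrower.

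**Figure D1:**
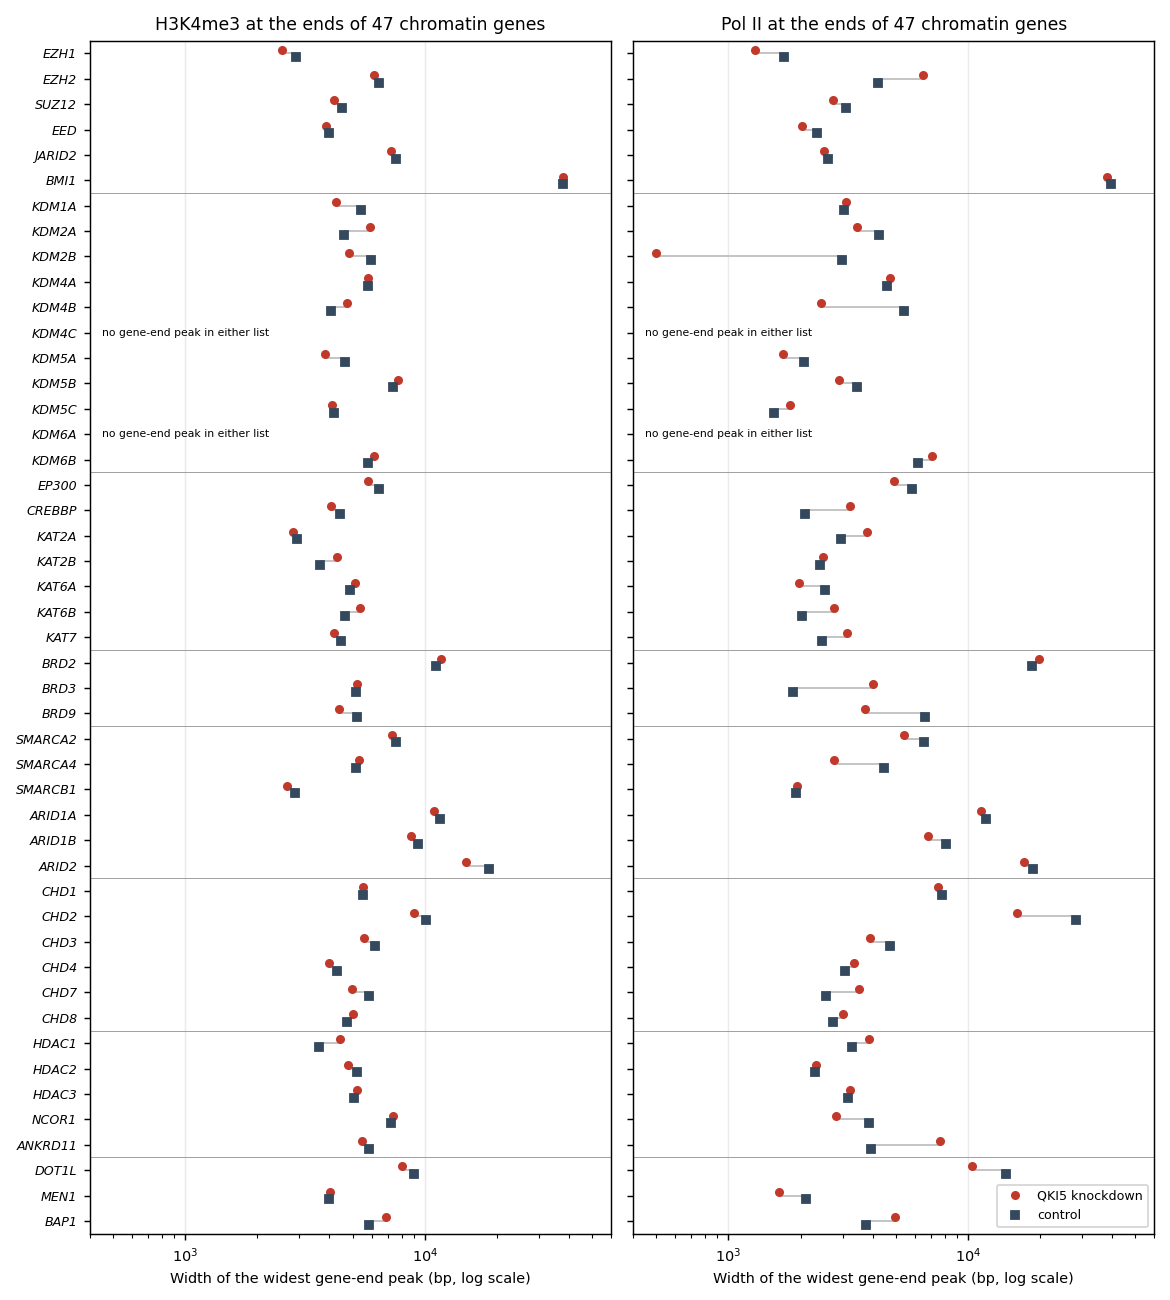
Width of the widest H3K4me3 peak (left) and Pol II peak (right) within 1 kb of a gene end, in bp on a log scale, for the 47 genes grouped by role. Red circles are QKI5 knockdown and dark squares control, 1 pooled peak list each, with no error bar. H3K4me3 pairs lie close together for all 45 genes with a peak, and Pol II pairs are widest apart for KDM2B, with 0.501 kb in knockdown and 2968 bp in control.

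The Polycomb genes spanned the range of widths. BMI1, a subunit of the PRC1 complex, had the widest H3K4me3 peak of the members, 37738 bp in knockdown and 37764 bp in control, over a block it shared with its neighbours COMMD3 and SPAG6. EZH1, an H3 methyltransferase and the alternative to EZH2 in PRC2, was among the 3 narrowest in control, with 2542 bp in knockdown and 2910 bp in control. JARID2, an accessory subunit that helps bring PRC2 to DNA, had 7219 bp in knockdown and 7606 bp in control. The PRC2 core genes EZH2, SUZ12 and EED had 6116, 4168 and 3876 bp in knockdown and 6441, 4503 and 3971 bp in control. All 6 were narrower in knockdown, each by less than the 1.5-fold used for a call, and the BMI1 ratio was 0.999. Most genes with a peak in both lists were narrower as well, 7717 of 13348.

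The demethylases held both ends of the ratio range. KDM1A, which removes methyl groups from lysine 4 of histone H3, had the lowest log2 ratio of the members, -0.35, with 4273 bp in knockdown and 5436 bp in control. KDM2A, a demethylase of lysine 36, had the highest, 0.36, with 5932 bp in knockdown and 4611 bp in control. The KDM2A peak began 946 bp upstream of the gene's 5′ end in knockdown and 101 bp upstream in control. The KDM5 enzymes remove the mark measured here, and at KDM5A, KDM5B and KDM5C their peaks were 3821, 7762 and 4103 bp wide in knockdown and 4645, 7388 and 4201 bp wide in control.

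SWI/SNF genes had the widest H3K4me3 peaks as a group, with a median of 8030 bp in knockdown and 8506 bp in control over 6 genes. ARID2, a subunit of the PBAF form of the complex, had 14862 bp in knockdown and 18604 bp in control. ARID1A, a DNA-binding subunit of the BAF form, had 10962 bp in knockdown and 11611 bp in control. SMARCB1, a core subunit, was the narrowest of all members in control, with 2650 bp in knockdown and 2884 bp in control. Among the acetyltransferases, KAT2A, the catalytic subunit of SAGA, had 2821 bp in knockdown and 2923 bp in control and was the third of the 3 narrowest in control. The members that were neither at the ends of the range nor in the groups above lay between 3619 and 11091 bp in control.

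Pol II widths differed more between conditions, and 9 of 45 members passed the 1.5-fold limit. Gene-end Pol II peaks stood in both lists at 45 members, in knockdown alone at 0 (beside 6.25% of all genes with a peak), in control alone at 0 (beside 3.01%) and again in neither at KDM4C and KDM6A, while 57.6% of all genes had a peak in both. In knockdown, 4 members were wider by at least 1.5-fold (EZH2, CREBBP, BRD3 and ANKRD11), or 8.89%, beside 17.4% of all genes. A further 5 were narrower (KDM2B, KDM4B, BRD9, SMARCA4 and CHD2), or 11.1%, beside 9.9% of all genes. The 9 together compare with 27.3% of all genes, or 34.1% when peaks in 1 list alone are added. The median log2 width ratio was -0.05 for members and 0.08 for all genes, and for members it turned to 0.01 where peaks at the transcript start were read. The members' median width was 3352 bp in knockdown and 3284 bp in control, and 37 of 45 in knockdown and 40 in control were wider than the median of their length decile. The widest Pol II peaks in control were those of CHD2 and of BMI1 and ARID2, which had 38025 and 17096 bp in knockdown and 39418 and 18600 bp in control. The narrowest were those of BRD3 and of KDM5C and EZH1, which had 1805 and 1291 bp in knockdown and 1556 and 1708 bp in control.

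**Figure D2:**
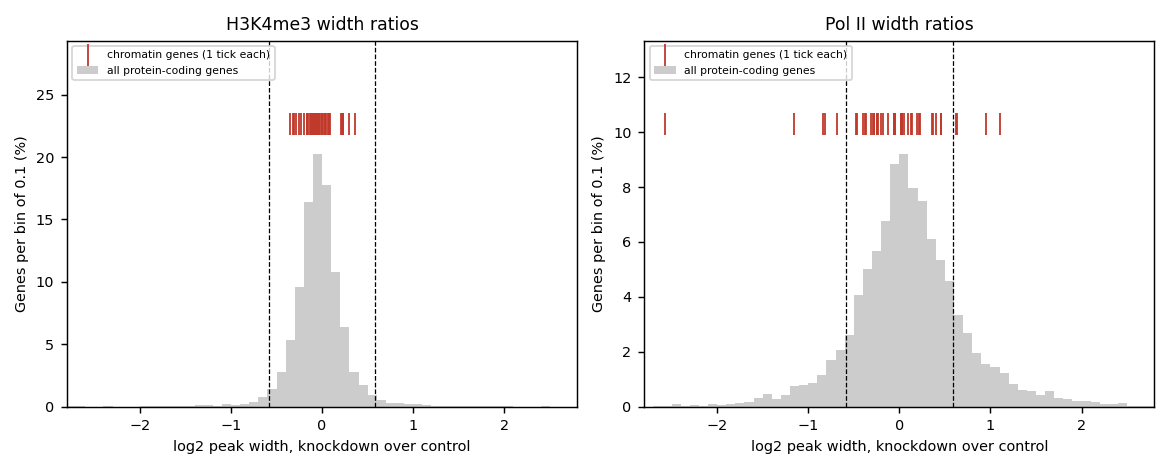
Log2 ratio of peak width, knockdown over control, for H3K4me3 (left) and Pol II (right). Grey bars give the percentage of all protein-coding genes with a peak in both lists in bins of 0.1, red ticks the 45 members, and dashed lines the 1.5-fold limits; 3 H3K4me3 and 29 Pol II genes lie outside the plotted range. All member ticks for H3K4me3 lie between the limits, and 9 for Pol II lie outside them.

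The widest gene-end peak was not at the same end of the gene in both lists for part of these genes. The chosen Pol II peaks did not overlap between conditions at 7 of 45 members (BRD3, BRD9, CHD4, EZH2, HDAC3, KDM2A and KDM2B), so that they overlapped at 84.4% of members and at 90.8% of all genes, and the chosen H3K4me3 peaks did not overlap at CHD8 and KDM4A. The peaks at the transcript start were therefore compared as well, for the 42 members with a RefSeq promoter. There, 0 members passed 1.5-fold for H3K4me3, beside 3.83% of all genes. For Pol II, 6 were wider in knockdown (HDAC1, MEN1, CREBBP, ANKRD11, HDAC3 and BRD3), or 14.6% beside 16% of all genes. The 4 that were narrower (KDM2B, CHD2, KDM4B and SMARCA4) made 9.76% beside 9.07%. EZH2 and BRD9 left the list, so their calls rest on which gene end was read. The chosen Pol II peak also lay within 1 kb of another gene's end at 18 of 45 members in knockdown and 17 in control. For H3K4me3 this held at 16 members in knockdown and 14 in control. Among the 9 called for Pol II, it held in at least 1 list for EZH2, BRD3 and BRD9. A shared peak's width need not belong to the member alone.

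EZH2, the main catalytic subunit of PRC2, had its widest knockdown peak beyond its 3′ end. That peak was 6497 bp wide and was shared with the neighbour CUL1. The corresponding control peak was 5676 bp wide, but it began 78100 bp from the 5′ end of the gene, against 77660 bp in knockdown, and so lay just over 1 kb from the gene's end. At the start the EZH2 peaks were 3179 bp in knockdown and 4213 bp in control, the opposite direction. BRD9, a bromodomain subunit of a SWI/SNF complex, had a control peak of 6617 bp across its 3′ end, where knockdown had separate peaks of 2554, 918 and 794 bp and one of 0.501 kb. At the BRD9 start the peaks were 3701 bp in knockdown and 2880 bp in control.

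KDM2B, a demethylase that also brings a PRC1 complex to CpG-rich DNA, had the Pol II ratio farthest from equality among the members. Its gene-end peaks were 0.501 kb in knockdown and 2968 bp in control, a log2 ratio of -2.57, yet the knockdown value is a peak at the 3′ end. A knockdown peak of 1782 bp lay near the start, from 1208 to 2989 bp inside the gene's 5′ end, and the control peak lay from 483 to 3450 bp. The RefSeq transcript start of the promoter printed above lies 1256 bp inside that end. Pol II covered 98 of the 300 bases printed in knockdown and 300 in control, while H3K4me3 covered all 300 in both. The KDM2B peak was therefore narrower in knockdown at the gene end and at the start, with H3K4me3 peaks of 4831 bp in knockdown and 5995 bp in control over the same start. Along the whole gene Pol II ran the other way, with 17 peaks covering 27621 bp in knockdown and 14 covering 18720 bp in control.

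KDM4B, a demethylase of lysine 9 of histone H3, had a Pol II peak of 2431 bp in knockdown and 5399 bp in control, a log2 ratio of -1.15. The downstream edges were close, 817 bp inside the gene in knockdown and 717 bp in control, and the upstream edges stood at 1613 bp before the gene in knockdown and 4681 bp in control. Its H3K4me3 peaks ran the other way, with 4730 bp in knockdown and 4057 bp in control. SMARCA4, the ATPase of SWI/SNF, had Pol II peaks of 2758 bp in knockdown and 4445 bp in control, a log2 ratio of -0.69. Over the bases covered within 5 kb of its start the SMARCA4 ratio was -0.32, below the 1.5-fold limit. Its H3K4me3 peaks were 5300 bp in knockdown and 5161 bp in control. CHD2, a chromodomain helicase, had 16003 bp in knockdown and 28189 bp in control, a log2 ratio of -0.82. The single control peak reached 19042 bp upstream of CHD2, and in knockdown nearly the same stretch was split by a gap of 922 bp into a peak of 12034 bp and the one of 16003 bp. Within 5 kb of the CHD2 start Pol II covered all 10001 bases in both conditions.

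**Figure D3:**
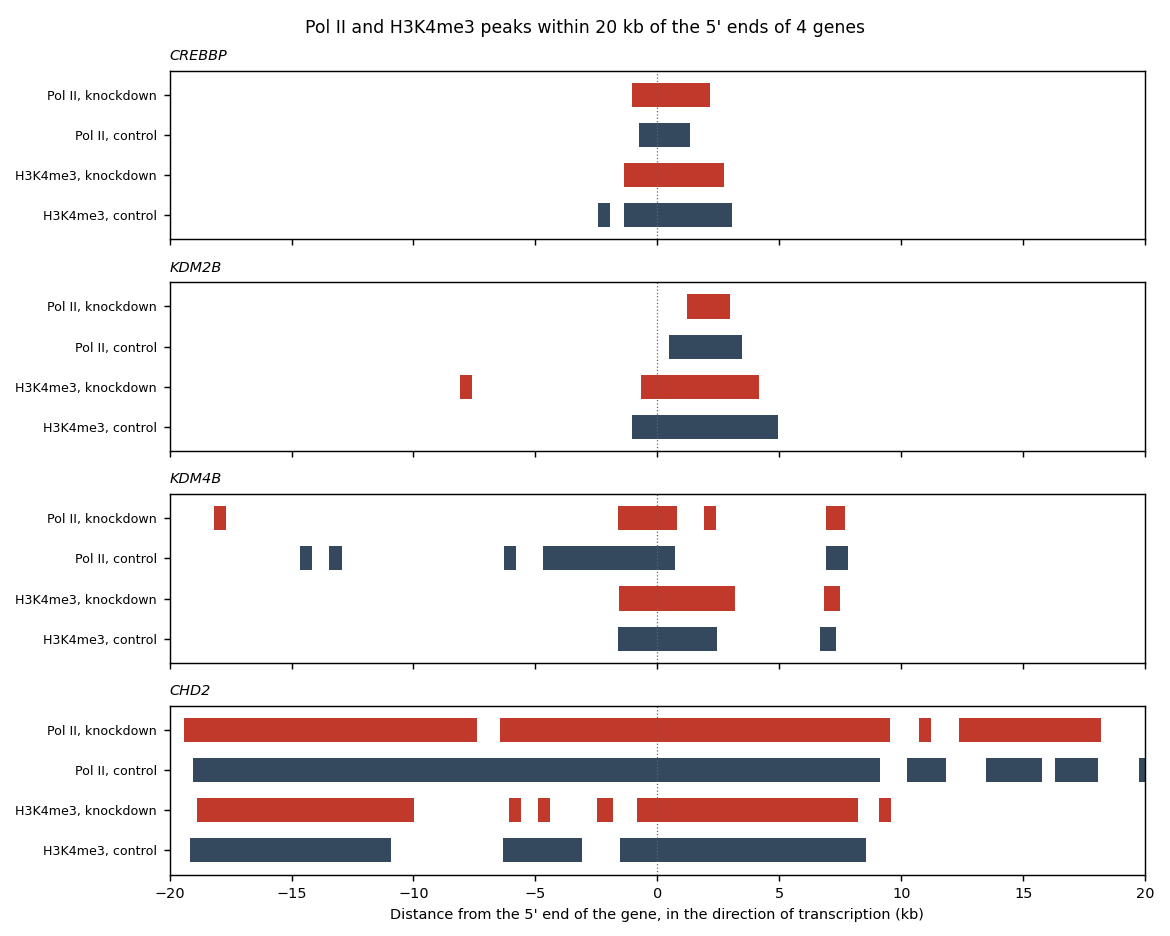
Pol II and H3K4me3 peaks within 20 kb of the 5′ ends of CREBBP, KDM2B, KDM4B and CHD2, by distance from the 5′ end of the RefSeq span in kb, negative upstream. Red bars are knockdown and dark bars control, 1 pooled list each, and bar length is peak width to scale. The CREBBP Pol II peak is wider in knockdown on both sides, the KDM4B peak is shorter upstream in knockdown, and the CHD2 peak is split in knockdown.

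CREBBP, an acetyltransferase and the close relative of EP300, had Pol II peaks of 3228 bp in knockdown and 2078 bp in control, a log2 ratio of 0.64. The knockdown peak ran from 1049 bp before to 2178 bp inside the gene and the control peak from 755 to 1322 bp. EP300 itself had 4928 bp in knockdown and 5814 bp in control. ANKRD11, which binds deacetylases and nuclear receptor coactivators, had 7630 bp in knockdown and 3951 bp in control, a log2 ratio of 0.95, and with the widths of its gene-end peaks summed the ratio was 0.53, below the 1.5-fold limit. The ANKRD11 knockdown peak reached 6198 bp into the gene and the control peak 2059 bp, after which control had separate peaks of 0.501 kb out to 8918 bp. ANKRD11 H3K4me3 ran the other way, with 5478 bp in knockdown and 5874 bp in control. BRD3, a reader of acetylated histones, had 4011 bp in knockdown and 1869 bp in control, from peaks at opposite ends of the gene. Over the BRD3 promoter printed above lay a knockdown peak of 3717 bp and a control peak of 1869 bp. A second control peak, of 1680 bp, lay further into the gene under the same knockdown peak, and the bases covered within 5 kb of the start differed by a log2 ratio of 0.07.

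Pol II was wider than H3K4me3 at 11 of 45 members in knockdown and 10 in control, or 24.4% in knockdown and 22.2% in control, against 20.04% of all genes in knockdown and 17.5% in control. BMI1, KDM6B, KAT2A, BRD2, ARID1A, CHD1, CHD2 and DOT1L were in both groups. BRD2, a BET bromodomain protein, had a Pol II peak of 19738 bp over an H3K4me3 peak of 11649 bp in knockdown, and 18536 bp over 11091 bp in control. DOT1L, the methyltransferase of lysine 79 of histone H3, had 10373 bp over 8007 bp in knockdown and 14451 bp over 9015 bp in control. KDM6B, which removes methyl groups from lysine 27 of histone H3, had 7043 bp over 6124 bp in knockdown and 6164 bp over 5812 bp in control. Inside the gene spans Pol II peaks covered 5.68% of the members' length in knockdown and 5.39% in control, against 3.15% in knockdown and 3.02% in control for all genes.

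Both members with no gene-end peak were demethylases, and they differed from each other. KDM4C had its RefSeq transcript start 37110 bp inside its outer end, and peaks lay there in both conditions. H3K4me3 was 3997 bp wide in knockdown and 4198 bp in control at that start, and Pol II was 2299 bp wide in knockdown and 2978 bp in control. KDM6A, which acts on lysine 27 of histone H3, had 0 peaks of either mark in its span in either condition, and what this absence reflects was not tested. The Pol II peak nearest to its 5′ end was 869.1 kb away in knockdown and 869.0 kb in control, and the H3K4me3 peak nearest to it 886.5 kb away in knockdown and 886.6 kb in control.

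QKI5 contacts were listed for a larger share of these genes than of genes of like length, and the margin was smaller against genes that carry both chromatin marks. In the control CLIP list 19 members had at least 1 peak, or 40.4% (exact 95% interval 26.4% to 55.7%), beside 13.9% of all protein-coding genes. The members are long, with a median of 75.02 kb against 24.1 kb for all genes, and long genes carry more peaks. Genes in the members' length deciles had a peak in 21.6% of cases. Among genes with both marks in control the share was 42.2% for members (exact 95% interval 27.7% to 57.8%) and 28.3% at their length deciles. The members held 65 peaks where the decile means add to 24.1. ANKRD11 alone held 23, and without it 18 of 46 members had 42 peaks, a share of 39.1% against 21.4% at their length deciles, where the means add to 23.1. Some listed peaks adjoin each other. With adjoining or overlapping peaks joined, the 65 made 48 sites, where the decile means add to 16.3. Joining left 16 sites at ANKRD11 and 7 at KDM4B. Intervals cover counting error only and treat the genes as independent draws. The members were chosen by name and each condition has 1 list, so the intervals do not test the set.

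In the knockdown CLIP list 5 members had a peak, or 10.6% (exact 95% interval 3.55% to 23.1%), beside 1.82% of all genes and 2.92% at the members' length deciles. Among genes with both marks in control it was 11.1% (3.71% to 24.1%) beside 3.76%, and without ANKRD11 8.70% (2.42% to 20.8%) beside 2.87%. These intervals rest on few genes and do not test the set either. The members held 7 peaks, against 65 in control, a ratio of control to knockdown of 9.29, and the whole lists differed by 11.2. Reads per sample are unknown, so the shorter list does not by itself give fewer contacts on a gene. Of the 19 members with a control peak, 3 had one in knockdown (15.8%), beside 6.83% of all genes with a control peak. When the control list was limited to its 649 peaks of highest -log10 p, the length of the knockdown list, 13 of them lay on 5 members (ANKRD11, KDM4B, JARID2, CHD8 and CREBBP). The share over other genes at this limit is not given here, so these counts have no background beside them.

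**Figure D4:**
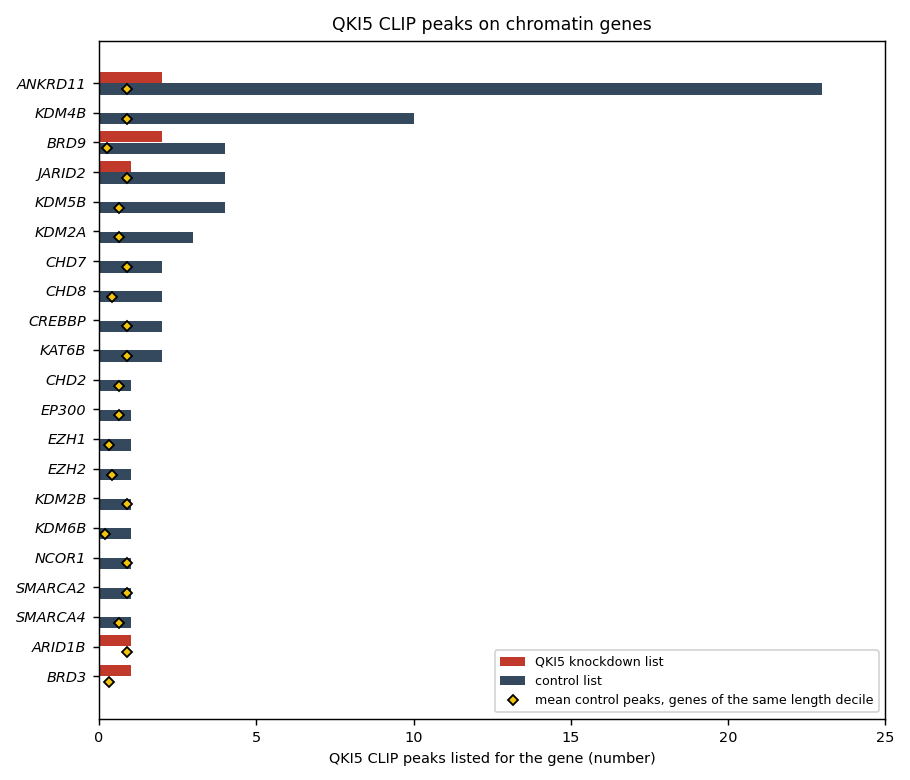
Number of QKI5 CLIP peaks listed for each of the 21 members with a peak in either list. Red bars are the knockdown list, dark bars the control list, and diamonds the mean number of control peaks of genes in the same length decile. ANKRD11 has 2 peaks in knockdown and 23 in control, KDM4B has 0 in knockdown and 10 in control, and BRD3 and ARID1B have a peak in knockdown alone.

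ANKRD11 had 2 CLIP peaks in knockdown and 23 in control, the fifth highest number of all genes in control, where genes of its length decile averaged 0.882. The 2 knockdown peaks had 6 reads each and the control peaks 8 to 39. The peak with the most reads lay at chr16:89280308-89280326 on the minus strand (GRCh38.p5), with 39 reads and a log2 enrichment of 4.17. It belonged to 7 peaks within 452 bp, and 17 of the 23 lay beyond 80% of the gene's length. None of the 2 knockdown peaks overlapped a control peak. Pol II peaks stood in the stretch beyond 80% of the gene's length in both lists. Over the whole gene they covered 16238 bp in knockdown and 10233 bp in control. Of the 23 control CLIP peaks, 2 overlapped a control Pol II peak.

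**Figure D5:**
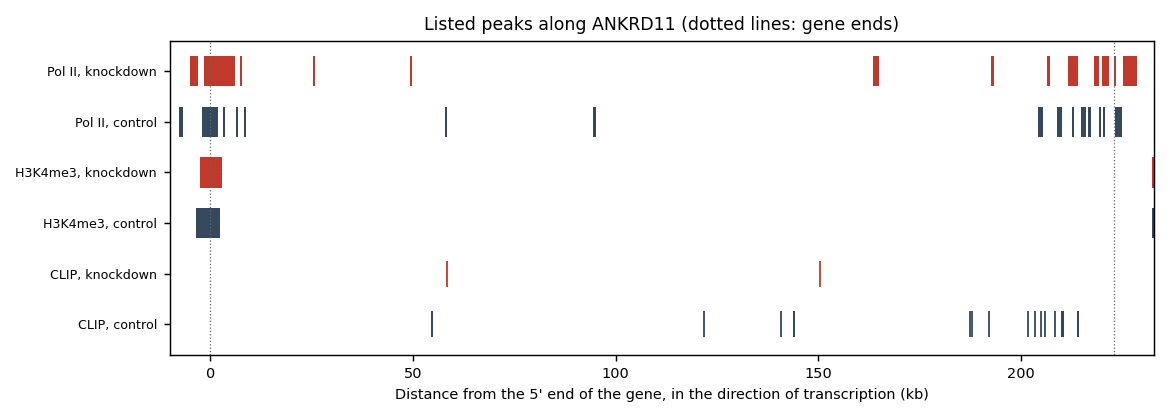
Listed peaks of Pol II, H3K4me3 and QKI5 CLIP along ANKRD11, by distance from its 5′ end in kb in the direction of transcription, with dotted lines at the gene ends. Red is knockdown and dark control, 1 pooled list each; CLIP peaks are drawn as ticks. The knockdown Pol II peak at the start reaches further into the gene, and 17 of 23 control CLIP peaks lie beyond 80% of the gene's length, where knockdown has none.

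KDM4B had 0 peaks in knockdown and 10 in control. The one with the most reads, at chr19:5081781-5081847 on the plus strand, had 18 reads and a log2 enrichment of 6.09, and 6 of the 10 lay within 855 bp around it. The other demethylases with peaks also had none in knockdown. KDM5B had 4 control peaks. The one with the most reads, 14, lay at chr1:202728075-202728172 near its 3′ end and had the lowest log2 enrichment of the 4, 3.27. A pair 772 and 878 bp from its 5′ end lay on its own H3K4me3 and Pol II peaks. KDM2A had 3, with the most reads, 11, at chr11:67249271-67249359. KDM2B and KDM6B had 1 each.

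JARID2 had 1 knockdown and 4 control peaks, and it was the only member with a contact that overlapped between lists. The knockdown peak at chr6:15263049-15263154, plus strand, had 15 reads and a log2 enrichment of 4.53. The control peak at chr6:15263077-15263182 had 22 reads and an enrichment of 3.38. This site lay 17.0 kb into the gene, downstream of the promoter printed above and of the H3K4me3 peaks that covered it. JARID2 widths were close between conditions, with Pol II peaks of 2506 bp in knockdown and 2611 bp in control.

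BRD9 had 2 knockdown and 4 control peaks, although it is 29.1 kb long and 0.849% of genes in its length decile had 4 or more. Both knockdown peaks, of 7 and 8 reads, and 1 control peak of 12 reads at chr5:859326-859425 lay beyond the 3′ end of its RefSeq span. The other 3 control peaks lay within 1467 bp of its 5′ end, on its own H3K4me3 and Pol II peaks, with 12 reads for the one at chr5:891738-891855. BRD3 and the BAF subunit ARID1B had 1 knockdown peak of 6 reads each and none in control. The BRD3 peak lay at chr9:134062604-134062763 on the minus strand and that of ARID1B at chr6:157058132-157058165 on the plus strand. Of the 7 knockdown peaks, 6 had between 6 and 8 reads.

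The remaining members among the 10 with the most control peaks had 2 each and none in knockdown. CREBBP had adjoining peaks of 13 reads at chr16:3823899-3823987 on the minus strand, with log2 enrichments of 7.62 and 5.62. CHD8, a chromodomain helicase, had its peak with more reads, 12, and an enrichment of 7.51, at chr14:21450063-21450141. KAT6B, a MYST acetyltransferase, had its peak with more reads, 9, at chr10:75030103-75030208. CHD7, another helicase, had 2 adjoining peaks of 7 reads each. EZH1, EZH2, EP300, SMARCA2, SMARCA4, CHD2, NCOR1, KDM2B and KDM6B had 1 each, of 7 to 11 reads. The methyltransferase, menin and deubiquitinase group (DOT1L, MEN1 and BAP1) had none in either list.

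QKI5 contacts of the members were also set against all H3K4me3 and Pol II peaks of the same condition, at promoters or elsewhere. In knockdown 0 of 7 and in control 7 of 65 member peaks (10.8%) lay on an H3K4me3 peak of the same condition, against 15.0% in knockdown and 13.1% in control over all CLIP peaks in protein-coding genes. On Pol II peaks lay 1 of 7 in knockdown and 12 of 65 in control (18.5%), against 15.2% in knockdown and 13.1% in control. In control H3K4me3 peaks covered 4.94% and Pol II peaks 5.39% of the members' length, against 3.53% and 3.02% for all genes.

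Members whose gene-end Pol II width differed by 1.5-fold mostly also had a QKI5 contact. Of the 9, 8 had a control CLIP peak and the ninth, BRD3, had a knockdown one. Of the 36 others, 11 had a control peak and 12 had a peak in either list. The 9 include EZH2 and BRD9, whose calls rest on which gene end was read. The 9 were longer, with a median of 128 kb against 64.1 kb for the 36. Genes of their length deciles had a control peak in 34.4% of cases, and those of the 36 in 27.1%. Over all genes the shares did not show this difference, with 19.1% of called and 19.8% of other genes having a control peak. With peaks read at the transcript start, 6 of 10 called and 12 of 31 other members had one, so the contrast was smaller where the start alone was read. The shares at their length deciles were 32.3% for the 10 called and 28.5% for the 31 others.

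Other chromatin complex genes were counted in the same way, 120 in all. They included Polycomb, SWI/SNF, NuRD, ISWI, INO80, SRCAP, NuA4, SIN3, NCoR, CoREST, SAGA and MYST genes. Further demethylase, bromodomain and helicase genes were among them too. H3K4me3 gene-end peaks stood in both lists at 112 of them (93.3%, beside 66.6% of all genes) and in neither at 8. By 1.5-fold, 4 were wider in knockdown (3.57%, beside 1.96% of all genes) and 1 was narrower (0.893%, beside 2.22%). Pol II peaks stood in both lists at 107 and in neither at 7. They stood in knockdown alone at PHC2 (758 bp), RSF1 (668 bp), KDM3A (0.501 kb) and HDAC8 (0.501 kb), beside 6.25% of all genes with a peak. In control alone they stood at RCOR2 (651 bp) and PHC1 (632 bp), beside 3.01%. Of the 107, 22 were wider and 11 narrower, or 20.6% wider and 10.3% narrower, near the 17.4% wider and 9.9% narrower of all genes. Their median log2 Pol II ratio was 0.12, against -0.05 for the 47 members, and that difference was not tested. CLIP peaks stood on 11 of the 120 in knockdown (9.17%, beside 2.47% at their length deciles) and on 44 in control (36.7%, beside 18.6%). Both shares were above those of genes of like length, as they were for the 47 members. The 120 were not set against genes of like length with both chromatin marks, where the margin of the members in control was smaller.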

How the data were processed

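The authors deposited 1 peak list per assay and condition, each pooling its 2 replicates according to the series text. HOMER and GRCh38.p5 are named in the submitters' processing notes. Not given in the sources used here are the aligner, how peaks were called and how inputs entered. In the 4 ChIP lists the deposited score is 1 at every peak. The CLIP lists have no header: the authors' values were read as the -log10 p and the log2 enrichment of each peak, and its read number as a count within the deposited peak name, all inferred from the values and used only to describe peaks within a list. Depth is unknown.

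Gene spans came from RefSeq GRCh38.p14, matched by symbol, and starts and strands from its promoter table. Widths, overlaps of at least 1 bp, length deciles and exact (Clopper-Pearson) intervals were computed with Python 3.11.15, pandas 2.3.3, numpy 2.4.6 and scipy 1.17.1, checked on simulated lists. Named are members with no peak or a 1.5-fold ratio, the 3 widest and narrowest, and those with the most CLIP peaks; further members illustrate their group and were chosen after their values were seen. Alternatives included other distances, folds and CLIP minimums. The members and lists were chosen with earlier results of these data known. Whether CLIP sites are exonic or intronic was not analysed here, nor were input or per-replicate signals, and 1 marker gene is not reported here by name.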

Additional observations from a re-analysis of the deposited data

How the results depend on the processing

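No paired analysis was possible because each list pools both replicates, and no replicate could be left out for the same reason. Members with a 1.5-fold H3K4me3 difference were 0 at every setting but a looser limit, 25% above equality, which gave 1 wider and 2 narrower in knockdown. For Pol II, that limit gave 9 wider and 10 narrower, and 2-fold gave 1 wider and 2 narrower. Shares over all genes at these other folds are not given here, so those counts have no background beside them. A distance of 5 kb gave 2 of 45 wider, beside 17.6% of all genes, and summed widths gave 8 of 45 narrower, beside 10.3%. The 5′ end alone gave 3 of 39 narrower, beside 8.99%. Bases covered within 5 kb of the start, an alternative chosen after seeing the data, gave 7 of 41 more covered and 2 less. Over all genes 13.9% were more and 7.29% less covered. The members' median Pol II log2 ratio changed sign, to 0.01 with summed widths or at the start, 0.02 at the 5′ end alone and 0.03 over covered bases. EZH2 turned to -0.41 within 500 bp of a gene end, at the 5′ end, at the start and over covered bases, and BRD9 turned to 0.36 at the 5′ end and the start and 0.73 over covered bases, since another peak was read. The call also ended, without turning round, for EZH2 (0.19) and BRD3 (0.15) within 5 kb of a gene end, for ANKRD11 with summed widths (0.53), and over covered bases for BRD3 (0.07), SMARCA4 (-0.32) and CHD2 (0). For control CLIP, a log2 enrichment of at least 5 left 30 peaks on 14 members (29.8%, beside 17.8% at their length deciles). A -log10 p of at least 10 left 22 peaks on 5 members (10.6%, beside 4.86%). At least 10 reads left 43 peaks on 10 members (21.3%, beside 8.54%). In knockdown each of the last 2 left 1 peak on 1 member, JARID2 (2.13%, beside 0.758% by -log10 p and 0.649% by reads). The control list limited to the knockdown list's length held 13, also with no background beside it. Of 91 alternative values of the main results 70 stayed close, as did 48 of 61 for single genes. Unknown depth limits all counts of CLIP peaks.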

Other observations

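KDM6A lay in a stretch of chromosome X of 4250 kb with no H3K4me3 or Pol II peak in any of the 4 lists, between 41492057 and 45742235 (GRCh38.p5). It held 12 protein-coding genes, CASK, GPR34, GPR82, PPP1R2C, MAOA, MAOB, NDP, EFHC2, FUNDC1, DUSP21, KDM6A and DIPK2B. Over chromosomes 1 to 22, X and Y, 8 peak-free stretches at least as long held a protein-coding gene, and 2 held as many as 12. The stretch held 2 control CLIP peaks, which adjoin each other in EFHC2 with 7 reads each, and none in knockdown. What the absence of listed peaks across this stretch reflects was not tested.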
